A study of Rattus norvegicus with 196 samples.

Results

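Otub1 encodes a deubiquitinase, an enzyme that removes ubiquitin from other proteins, and its level was followed here through 25 regions of the rat brain with and without chronic fluoxetine. It is 1 gene of 1845 that have a name in these data, and it was read from 1 of the 29188 Ensembl transcripts counted, ENSRNOT00000028752. It was chosen by the study's calls in these samples, which placed it higher in fluoxetine-treated (FT) than in control (Sham) samples in many regions. Its FT to Sham difference is therefore given below as a description with no test, while its differences between regions within Sham and within FT were not used to choose it and were tested.

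The samples were 98 FT and 98 Sham pools of punches from male Long-Evans rats that were 2 months old when treatment began. FT rats drank water with fluoxetine, an inhibitor of serotonin reuptake, for 6 weeks at a daily dose of 18 mg/kg, and Sham rats received water alone. Each sample pooled a region from 10 animals, with 40 animals in each treatment group, so differences between single animals were not seen. All regions of a group came from the same 40 animals, so counts of regions below are not counts of independent samples. The replicates carry the numbers 1, 3, 4 and 5, and the FT and Sham samples of a number were processed in parallel, so each number gives a pair of pools in a region. Sham Arc and FT MPOA held replicates 4 and 5 only, and samples of dorCA1 and venCA1 were not used here.

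Proteins destined for breakdown are tagged with ubiquitin by a relay of enzymes, in which an E1 enzyme activates ubiquitin, an E2 enzyme carries it and an E3 ligase places it on the target. OTUB1, named for its ovarian tumour domain, is a cysteine protease that prefers the ubiquitin chains read by the proteasome. It also binds ubiquitin-loaded E2 enzymes and blocks their transfer of ubiquitin, an action that does not need its protease activity. The protein is found in most tissues, brain included, and the p53 pathway and the response to DNA damage are among the processes it is known to act on.

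On the RefSeq map of the rat assembly GRCr8, Otub1 lies on the minus strand of chromosome 1, inside the span of Macrod1, a gene of the opposite strand. The deposited counts rest on the older rn5 assembly and carry no coordinates. The 250 bases before the annotated start of Otub1 are shown because they are the stretch from which its transcript would be driven, at chr1:213824680-213824929, read 5′ to 3′ along the gene, with capitals for each match to the ETS motif CCGGAAG on either strand.
Otub1 promoter, GRCr8: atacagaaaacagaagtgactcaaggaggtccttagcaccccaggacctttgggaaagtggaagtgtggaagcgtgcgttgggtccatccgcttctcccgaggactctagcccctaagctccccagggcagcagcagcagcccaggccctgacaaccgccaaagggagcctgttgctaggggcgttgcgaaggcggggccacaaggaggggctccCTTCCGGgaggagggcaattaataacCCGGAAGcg

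The 2 matches lay 29 and 3 bases before the start, the first of them on the opposite strand and the second on the gene's own strand. Of 33469 rat promoters of the same length, 7.27% held this motif. The window held 11 CpG dinucleotides and a GC content of 60.8%, against medians of 5 and 51.2% over all promoters. It held no match on either strand to the cAMP response element TGACGTCA, which 1.59% of promoters held, to TATAAA, which 12.9% held, to CCAAT, which 34.0% held, or to GGGCGG, which 30.5% held. These are matches of letters only, since factor binding was not among the data analysed.

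Otub1 was well counted. Of the 196 libraries 195 held between 33 and 69391 reads on it, and the exception was the Sham SNT library of replicate 3, with 0 Otub1 reads among 4586 in all. That library allows a level of up to 262 CPM (reads scaled to a common library size) on the floor of 3 counts used here, so it says nothing of Otub1, and the Otub1 levels of SNT below are given without it. Total counts on transcripts ranged from 4586 to 50893913 with a median of 11921178. Levels are given as CPM scaled by TMM factors over all 196 libraries, and the range of total counts sets the counting error only. The libraries differed in make-up by replicate number. The share of a library's counts on its 50 most counted transcripts had a median of 68.2% in replicate 3, against 34.8%, 29.9% and 28.3% in replicates 1, 4 and 5. It was 83.3% in the FT CGC library of replicate 1 and 82.9% in the Sham ILC library of that number. The CGC pair of replicate 1, with this FT library, was left out of the FT to Sham fit, since the study's methods describe the removal of outlying CGC replicates, though they do not number them. The labels of 8 Sham samples of replicate 1 state that the raw reads were damaged, and their counts were used as deposited. Of the region markers checked, Th and Slc6a3 were highest in VTA, Adora2a and Ppp1r1b in NaCcore, DRD2 in NaCshell and Cartpt in Arc, as medians over Sham libraries. Hcrt was higher in VMH (54.7 CPM) than in LH (19.5 CPM), and Neurod1 was higher in PAG (107 CPM) than in dorDG (62.9 CPM) and venDG (34.4 CPM), so the highest medians of these markers lay outside the regions they were to mark. PVN, which the study lists as a thalamic nucleus, had Oxt at a median of 0.261 CPM and Avp at 0.219 CPM, so the hypothalamic hormones that share its abbreviation were near 0 there.

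Otub1 was present in every region, and within Sham its level differed between regions by edgeR's quasi-likelihood test with the replicate number as a block (F = 1.94, adjusted p = 0.0230 over 17008 transcripts). Most transcripts differed by the same test, 71.1% of them, so the call does not set Otub1 apart. The highest level was in CMA, the centromedial amygdala, and the lowest in PVN. CMA lay 0.79 above the mean of the other 24 regions on the log2 scale (SE 0.21, adjusted p = 0.00600), a call made higher for 8.56% of transcripts. PVN lay 0.77 below it (log2 difference -0.77, SE 0.25, adjusted p = 0.0232), a call made lower for 5.18% of transcripts. Of the other 23 regions 0 passed the adjusted threshold of 0.05 in edgeR's test (lowest adjusted p = 0.194), and 0 had an unadjusted p under 0.05. The fitted level of CMA exceeded that of PVN by 1.50 on the log2 scale (SE 0.33). These 2 regions were picked as the ends of the same order, so the gap is a description only.

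In the 4 Sham CMA libraries Otub1 stood at 1535, 456, 434 and 652 CPM in replicates 1, 3, 4 and 5. These were the highest of 24 regions, the 4th of 23, the 2nd of 25 and the highest of 25 in their replicate numbers. In the 4 Sham PVN libraries it stood at 325, 215, 175 and 248 CPM in the same order. PVN ranked 23rd of 24, 23rd of 23, 24th of 25 and 22nd of 25, so it lay near the bottom in each. The ranges of CMA and PVN did not overlap, which the choice of the highest and the lowest region from these same values favoured in advance. Without the replicate block the test over regions gave an adjusted p of 1, and the contrasts of CMA and PVN gave 0.246 and 0.401. The test over regions also missed the threshold without replicate 1, 3 or 5, the PVN call was lost without any 1 of the 4 replicate numbers, and the CMA call without replicate 5 (adjusted p = 0.0518). With median-ratio size factors in place of TMM the test over regions gave an adjusted p of 0.0653 and PVN 0.0635.

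**Figure D1:**
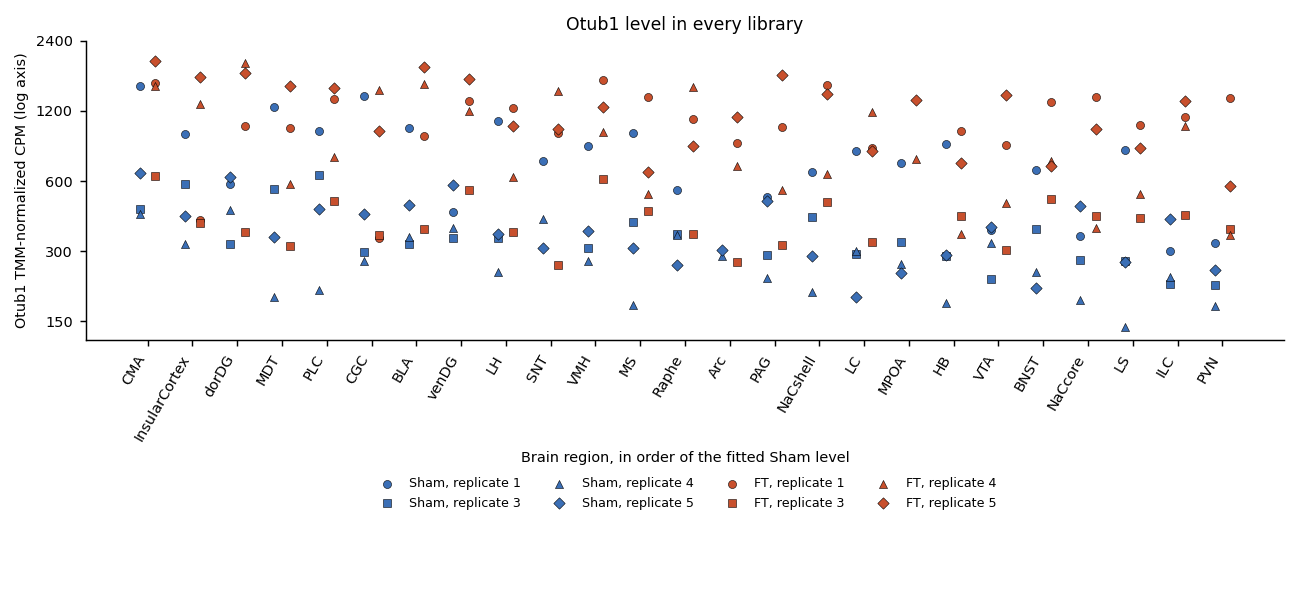
Otub1 level in every library as TMM-normalized CPM on a log axis, by region in the order of the fitted Sham level, with colour for the treatment and marker shape for the replicate number. The Sham SNT library of replicate 3 is not drawn. The 4 Sham PVN libraries lie between 175 and 325 CPM, and the 4 Sham CMA libraries between 434 and 1535 CPM.

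Between these ends the Sham levels formed a gradual series. In the forebrain cortex Otub1 averaged 570 ± 275 CPM in InsularCortex (SD, n = 4), 570 ± 328 in PLC and 290 ± 88.2 in ILC. CGC averaged 596 ± 530 over 4 libraries and 334 ± 88.2 over the 3 without replicate 1. The dentate gyrus samples dorDG and venDG averaged 495 ± 139 and 434 ± 102 CPM. The amygdala sample BLA averaged 540 ± 325 CPM and CMA 769 ± 520. The thalamic and epithalamic samples MDT, HB and PVN averaged 585 ± 469, 405 ± 311 and 241 ± 63.7 CPM. The cortex, the hippocampus and the amygdala thus filled most of the upper places, and ILC stood next to last in the fitted order, at -0.44 against the other regions. Without replicate 1, whose ILC library had the uneven make-up given above, ILC lay at -0.19, and LS (-0.60), HB (-0.44) and LC (-0.29) were among the regions below it.

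The septal and striatal samples lay lower in the series. LS, MS and BNST averaged 374 ± 299, 463 ± 347 and 374 ± 211 CPM in Sham, and NaCcore and NaCshell averaged 319 ± 119 and 390 ± 197. In the hypothalamus and preoptic area LH averaged 506 ± 388 CPM, VMH 449 ± 269, MPOA 388 ± 221 and Arc 294 ± 11.9, the last with n = 2. Sham Arc lacks replicate 1, whose median over Sham regions was 771 CPM against 265 and 355 CPM in replicates 4 and 5. The mean and SD of Arc are therefore not comparable with the others, and with the replicate block it lay at -0.09 (SE 0.33). In the midbrain and brainstem VTA averaged 326 ± 69.6 CPM, PAG 380 ± 142, Raphe 380 ± 122, LC 398 ± 279 and SNT 485 ± 220 over 3 libraries. Serotonin, noradrenaline and dopamine neurons lie in Raphe, LC and VTA, and these regions held a middle to low place in the order. Of the 24 steps between neighbours in the fitted order, the largest in Sham was that from CMA to InsularCortex, 0.36 on the log2 scale with an SE of 0.32, and that from ILC to PVN was 0.32 with an SE of 0.33. The other 22 steps were at most 0.12 with SEs of 0.32 or more. The step below CMA was thus a little larger than its SE, the others were smaller than theirs, and no step reached 2 SEs.

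FT samples, taken from other animals, also had CMA at the top, while InsularCortex, next to it in Sham, stood 10th in FT. The test over regions did not pass in FT (F = 1.34, adjusted p = 0.195, edgeR), where 75.2% of transcripts did. CMA lay 0.70 above the mean of the other regions (SE 0.24, adjusted p = 0.0309), a call made higher for 9.28% of transcripts. The 4 FT CMA libraries stood at 1574, 631, 1537 and 1969 CPM in replicates 1, 3, 4 and 5, and ranked 2nd, 1st, 3rd and 1st in their replicate numbers. PVN lay at -0.42 (SE 0.27, adjusted p = 0.256) in FT, where a lower call was made for 11.4% of transcripts. Its 4 FT libraries stood at 1356, 375, 353 and 571 CPM in replicates 1, 3, 4 and 5. They ranked 6th of 24, 13th of 24, 25th of 25 and 25th of 25, so PVN was lowest in replicates 4 and 5 only. The lowest region of the FT fit was HB, at -0.47 (SE 0.27). The FT call of CMA was lost without replicate 3 (adjusted p = 0.123) and without replicate 5 (adjusted p = 0.125). Pearson's r between the Sham and FT means of the 25 regions was 0.68, against a median of 0.46 over the 1753 named transcripts that passed the filter in every region. The FT and Sham libraries of a number were processed together, so the region means share that source of spread.

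**Figure D2:**
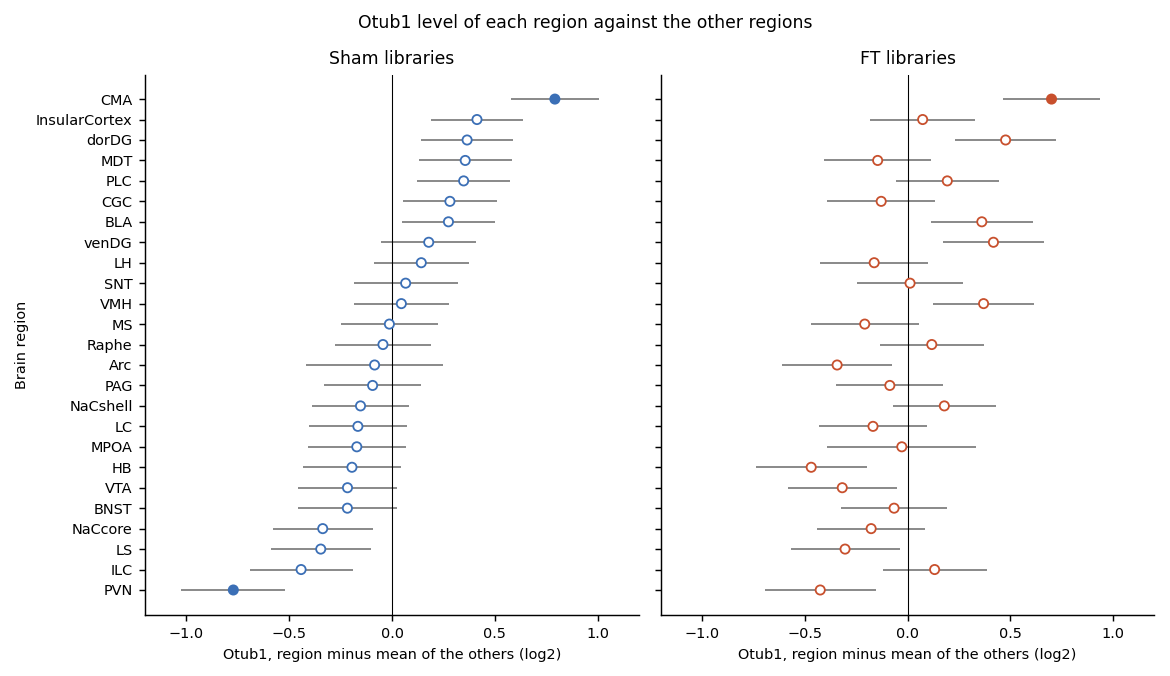
Otub1 level of each region minus the mean of the other regions on the log2 scale, in Sham (left) and FT (right), with bars for the standard error. Filled points have an adjusted p of at most 0.05 in edgeR's test. CMA is the filled point at the top of both panels (0.79 and 0.70), and PVN is filled in Sham alone (-0.77).

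Otub1 was higher in FT than in Sham in every one of the 25 regions by the fitted log2 fold change. The regions were taken from the same animals, so these are not 25 independent readings. The values ran from 0.55 (SE 0.61) in InsularCortex to 1.97 (SE 0.38) in MPOA with a median of 1.13, which is 2.19-fold. These are values of the contrast that chose the gene, so no test is attached to them. For comparison, 4.13% of the 11365 transcripts fitted in all 25 regions were above 0 in each of them, and 0.238% were so with a median at or above that of Otub1. Within a region Otub1 ranked between the 88.5th and the 99.8th percentile of all transcripts by its fold change, with a median percentile of 98.7. In bulk tissue, more cells that carry Otub1 and more Otub1 RNA per cell cannot be told apart.

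The fold changes were high in MPOA and Arc, each with 2 pairs, those of replicates 4 and 5. Over all regions these replicate numbers had median log2 ratios of 1.68 and 1.70, against 0.51 and 0.24 in replicates 1 and 3. The pairs of replicates 4 and 5 stood at 1.49 and 2.46 in MPOA and at 1.29 and 1.90 in Arc. The places of these 2 regions are therefore not comparable with those of regions with 4 pairs. Otub1 in MPOA stood at 745 and 1335 CPM in FT replicates 4 and 5 and at 715, 329, 265 and 243 CPM in Sham replicates 1, 3, 4 and 5. Every FT library lay above every Sham library, as for 12.7% of transcripts in that region, but the Sham library of replicate 1 came close to the lower FT value. In Arc the log2 fold change was 1.59 (SE 0.22). Its FT libraries ran from 268 to 1127 CPM and its Sham libraries stood at 285 and 302 CPM, so the groups overlapped at the FT library of replicate 3, which has no Sham partner.

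ILC had a log2 fold change of 1.66 (SE 0.39). Its FT libraries stood at 1131, 431, 1035 and 1320 CPM in replicates 1, 3, 4 and 5 and its Sham libraries at 300, 217, 233 and 411 CPM, so each FT library exceeded each Sham library. The Sham ILC library of replicate 1 had 82.9% of its counts on 50 transcripts and 21.8% ambiguous reads. That of replicate 3 held 33 Otub1 reads among 543403 counts, with 77.1% of reads outside annotated features. The ILC pairs that hold these Sham libraries had log2 ratios of 1.92 (replicate 1) and 0.99 (replicate 3). The other ILC pairs had 2.15 (replicate 4) and 1.68 (replicate 5). Whether library make-up shaped the fold change or the separation of ILC was not tested. PVN had a log2 fold change of 1.33 (SE 0.31), and the FT values given above likewise all exceeded the Sham values. SNT had 1.39 (SE 0.53) in the fit with the void Sham library and 1.28 (SE 0.32) without replicate 3, and its 3 usable pairs were higher in FT. Its FT libraries stood at 967, 262, 1467 and 1000 CPM in replicates 1, 3, 4 and 5 and its usable Sham libraries at 731, 413 and 309 CPM in replicates 1, 4 and 5, so the FT library of replicate 3, whose partner is void, lay below all of these Sham libraries. A full separation was seen in 3 regions (MPOA, ILC and PVN), and 1.58% and 1.85% of transcripts separated in the same direction in ILC and PVN.

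In venDG, NaCshell, VMH and BNST the log2 fold changes were 1.41 (SE 0.25), 1.40 (SE 0.35), 1.33 (SE 0.28) and 1.22 (SE 0.26), and all 4 pairs of each region were higher in FT. NaCcore, Raphe, dorDG and LS followed with 1.21 (SE 0.32), 1.19 (SE 0.32), 1.13 (SE 0.32) and 1.12 (SE 0.33). In Raphe, the source of the serotonin neurons on which fluoxetine acts, Otub1 stood at 1109, 356, 1524 and 850 CPM in FT and at 551, 356, 351 and 262 CPM in Sham, so 3 of the 4 pairs were higher in FT and the pair of replicate 3 was level. CGC had 1.28 (SE 0.40) from 3 pairs. With its replicate 1 pair, in which FT stood at 342 and Sham at 1383 CPM, it had 0.52 (SE 0.66).

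LC, BLA, PAG, CMA and VTA had log2 fold changes from 0.99 to 1.07 with SEs from 0.27 to 0.41. PLC, MS, LH and HB had values from 0.77 to 0.93 with SEs from 0.21 to 0.38. The lowest values were those of MDT, 0.63 (SE 0.51), and InsularCortex, 0.55 (SE 0.61), and in both 2 of the 4 pairs were higher in FT. InsularCortex stood at 407, 395, 1279 and 1683 CPM in FT and at 950, 581, 322 and 424 CPM in Sham, in replicates 1, 3, 4 and 5. Its log2 fold change was 1.18 (SE 0.47) without replicate 1, -0.01 (SE 0.61) without replicate 4 and -0.00083 (SE 0.54) without replicate 5. In MDT the value was 0.24 (SE 0.55) without replicate 4 and 0.11 (SE 0.49) without replicate 5. In 20 of the 25 regions every pair was higher in FT when the void SNT pair and the CGC pair of replicate 1 were left out, and in 19 with that CGC pair.

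**Figure D3:**
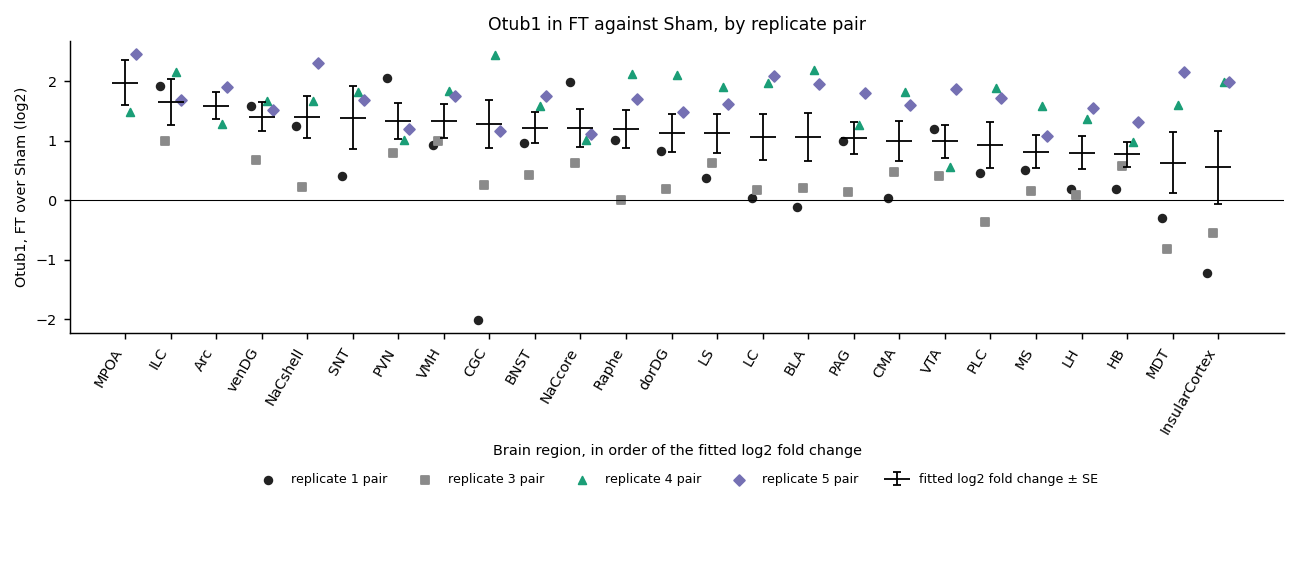
Log2 ratio of the Otub1 level in FT over Sham for each replicate pair (coloured points), and the fitted log2 fold change with its standard error (black), by region in the order of the fit. The fit leaves out the CGC pair of replicate 1, drawn at -2.01, and the SNT pair of replicate 3 is not drawn. Points of replicates 4 and 5 lie above 0 in all 25 regions.

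The difference between FT and Sham was unlike in size between the replicate numbers. In replicates 4 and 5 all 25 regions were higher in FT, with median log2 ratios of 1.68 and 1.70, at median percentiles of 98.3 and 98.7 among all transcripts. Replicate 4 ran from 0.56 in VTA to 2.44 in CGC, and replicate 5 from 1.09 in MS to 2.46 in MPOA. In replicate 1 FT exceeded Sham in 19 of 23 regions, the median was 0.51, and the range went from -2.01 in CGC to 2.06 in PVN. In replicate 3 FT exceeded Sham in 18 of 22 regions, and the median was 0.24, from -0.82 in MDT to 0.99 in ILC. As folds the 4 medians are 1.42, 1.18, 3.19 and 3.24 for replicates 1, 3, 4 and 5.

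These ratios arose from levels that moved in both groups. The median level over regions in Sham was 771, 322, 265 and 355 CPM in replicates 1, 3, 4 and 5, and in FT it was 1079, 385, 745 and 1244 CPM. Sham replicate 1 therefore stood above the other Sham replicates, and FT replicate 3 below the other FT replicates. In 18 of the 23 Sham regions with 4 usable libraries the highest Otub1 level was that of replicate 1. Without TMM factors the medians were 824, 168, 364 and 528 CPM in Sham and 1185, 189, 1091 and 1740 CPM in FT. The small ratio of replicate 3 and the large ratios of replicates 4 and 5 were thus present on both scales.

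**Figure D4:**
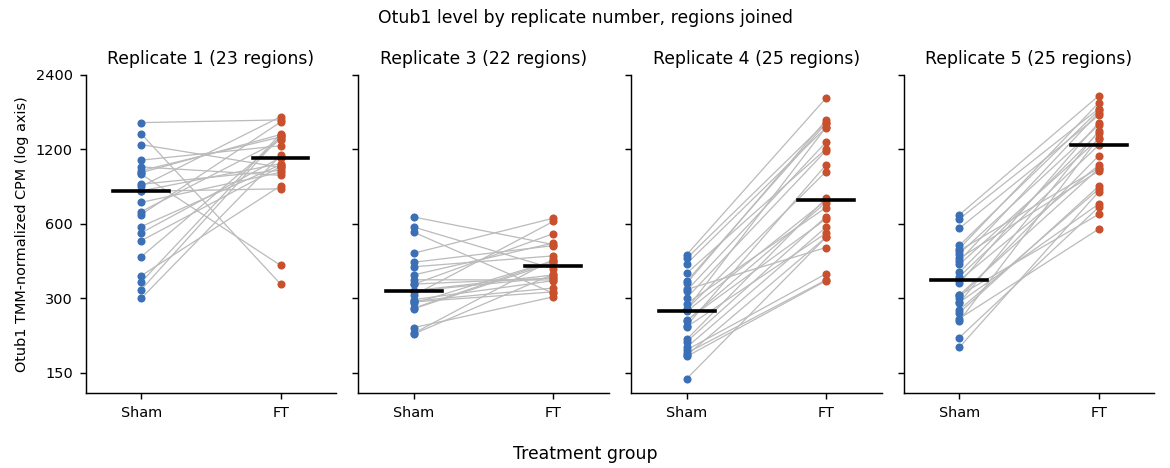
Otub1 level in Sham and FT as TMM-normalized CPM on a log axis, 1 panel for each replicate number, with lines joining the libraries of a region and black bars at the medians. The lines climb in all 25 regions of replicates 4 and 5, while replicates 1 and 3 hold lines of both directions.

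The make-up of the libraries moved with the Otub1 level, and its part in the result was not tested. In replicate 1, 7 libraries had at least 50% of their counts on the 50 most counted transcripts, 5 of them Sham (BNST, ILC, NaCcore, NaCshell and VTA) and 2 FT (CGC and InsularCortex). Otub1 had a median of 370 CPM in these 7 and of 1013 CPM in the other 41 libraries of replicate 1. The 47 libraries of replicate 3 other than the void one were all at or above 50%, with a median of 356 CPM. In replicates 4 and 5 all 100 libraries were below 50%, and the share was lower in FT in 22 of 25 pairs of replicate 4 (median difference -3.13 percentage points, from -12.0 to 1.47) and in 15 of 25 of replicate 5 (median -0.142, from -11.2 to 3.64). The share of reads outside annotated features was higher in FT in 21 of 25 pairs of replicate 4, where it differed by a median of 4.97 percentage points, and in 7 of 25 pairs of replicate 5, 3 of 23 of replicate 1 and 11 of 22 of replicate 3. Otub1 was higher in FT in the pairs of either kind, with median log2 ratios of 1.82 and 1.35 in replicate 4 and of 1.70 and 1.71 in replicate 5 where that share was higher and lower in FT. The share of reads ambiguous between transcripts was higher in FT in 11 of 23, 9 of 22, 3 of 25 and 2 of 25 pairs of replicates 1, 3, 4 and 5, with median differences of -0.106, -0.0958, -0.839 and -0.618 percentage points. It was thus lower in FT in most pairs of replicates 4 and 5, the numbers in which Otub1 differed by most.

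**Figure D5:**
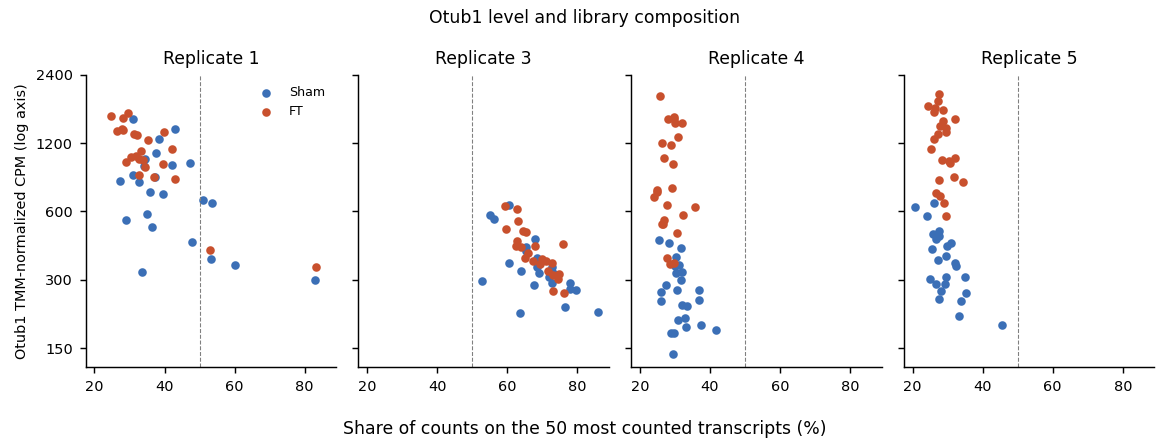
Otub1 level as TMM-normalized CPM on a log axis against the share of a library's counts on its 50 most counted transcripts, 1 panel for each replicate number, with the dashed line at 50%. All libraries drawn for replicate 3 lie to the right of the line, and 7 of replicate 1 do, while all libraries of replicates 4 and 5 lie to its left.

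Markers of cell types were followed in the same pairs. Of 9 neuronal markers listed 8 have a name in the data, and the summed level of these (Syp, CAMK2A, Dlg4, Tubb3, Slc17a6, Rab3a, Thy1 and Gad2) had median log2 ratios of FT to Sham of 0.48, 0.30, 0.19 and 0.03 in replicates 1, 3, 4 and 5. It ran from 1057 to 6816 CPM in Sham and from 1254 to 6426 CPM in FT. The 8 of 10 oligodendrocyte markers with a name had 0.07, -0.01, -0.30 and -0.07, and ran from 108 to 1580 CPM in Sham and from 133 to 1443 CPM in FT. The 6 of 8 astrocyte markers had 0.23, 0.51, -0.26 and 0.20, and ran from 442 to 26295 CPM in Sham and from 449 to 37423 CPM in FT. The 4 of 5 microglial markers, whose sums ran from 18.5 to 109 CPM in Sham and from 18.3 to 158 CPM in FT, had 0.30, 0.31, -0.17 and -0.26. The 4 of 4 choroid plexus markers had -0.01, -0.34, -1.12 and -0.34, with sums from 2.27 to 70083 CPM in Sham and from 2.08 to 99497 CPM in FT. No marker on these lists was at 0 in all libraries. A sum is set by its abundant members, and the fitted FT to Sham log2 fold changes of the single markers over regions had medians of -0.21 for neuronal, 0.26 for oligodendrocyte, -0.07 for astrocyte, -0.58 for microglial and -0.70 for choroid plexus markers, against 0.01 over all transcripts. In neurons, oligodendrocytes and astrocytes these medians thus had other signs than most of the ratios of the sums. By edgeR, at an adjusted p of at most 0.1 and an absolute log2 fold change of at least 0.32, 2 of 200 neuronal combinations of marker and region were called higher and 8 lower, and 6 of 200 oligodendrocyte combinations higher and 3 lower. Astrocyte markers had 2 of 150 higher and 7 lower, and choroid plexus markers 1 of 76 in each direction. Of 99 microglial combinations 0 were called higher and 5 lower by edgeR (8 and 30 at an unadjusted p under 0.05, and 4 and 6 by DESeq2). Over all transcripts 1.01% of combinations were called higher and 0.913% lower by edgeR, and over named ones 3.67% and 2.68%. At an unadjusted p under 0.05 edgeR gave 25 higher and 50 lower for neuronal markers and 52 and 32 for oligodendrocyte markers. It gave 31 and 39 for astrocyte and 7 and 17 for choroid plexus markers. DESeq2 called 11 higher and 20 lower, 18 and 17, 21 and 18, and 5 and 9 for these 4 lists in turn. Over all transcripts it called 1.19% of combinations higher and 0.803% lower, and over named ones 10.5% and 5.38%. Shares of all transcripts at the unadjusted threshold were not computed, so the unadjusted marker counts have no background beside them. The part of cell make-up in the result was not tested.

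Since Otub1 lies within the span of Macrod1, and the strand setting of the counting is not given in the sources used here, reads of both genes could be shared. Macrod1, an ADP-ribosyl-hydrolase gene, had a median of 7.38 CPM in Sham and 11.1 CPM in FT, on a scale that takes no account of transcript length. Its median log2 ratios were 0.53, 0.78, 0.63 and 0.18 in replicates 1, 3, 4 and 5. Cox8a, a subunit gene of cytochrome c oxidase and the next coding gene along the map, had -0.01, 0.45, -0.14 and 0.68. Over the 94 pairs the log2 ratios of Macrod1 and Cox8a had an r with those of Otub1 of -0.09 and -0.15. The part of shared or ambiguous reads in the Otub1 result was not tested.

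The named genes whose level over the 25 Sham region means was most like that of Otub1 were Thy1 (r = 0.80), a surface glycoprotein of neurons, Gpi (0.79), a glycolytic enzyme, Coa3 (0.79), an assembly factor of cytochrome c oxidase, Rnf10 (0.78), a RING finger protein, and Cs (0.77), the citrate synthase of the Krebs cycle. Over the 1753 named candidates the median r was 0.14 and the 95th percentile 0.53. In the FT region means the r of the same 5 genes with Otub1 was 0.53, 0.47, 0.77, 0.27 and 0.23. With each replicate number first centred on its mean over regions, the r of these genes was 0.62, 0.67, 0.80, 0.37 and 0.69 in FT. In Sham it was then 0.81, 0.76, 0.78, 0.76 and 0.82. Coa3 thus held its likeness in FT on both scales, and Rnf10 had lower values there on both. Cs was far lower in FT only without the centring. The lowest r in Sham were those of RGD1565616 (-0.66), Cpne3 (-0.55) and Mns1 (-0.55). The regional means share their libraries and their depth, so these r are descriptions.

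Over the log2 FT to Sham ratios of 94 pairs, the named genes most like Otub1 were Dcaf8 (r = 0.81), a substrate receptor of a ubiquitin ligase, Lrtm2 (0.81), a leucine-rich repeat membrane protein, Cirbp (0.81), a cold-inducible RNA-binding protein, Nutf2 (0.80), a nuclear transport factor, and Lpin2 (0.80), a phosphatidate phosphatase. The median over candidates was 0.15 and the 95th percentile 0.65. Cirbp had median log2 ratios of 0.38, 0.13, 1.94 and 2.74 in replicates 1, 3, 4 and 5, and Lpin2 had 0.19, 0.06, 2.27 and 2.45. Both showed the step between replicates 1 and 3 on one side and 4 and 5 on the other that Otub1 showed. Within replicate numbers the r of Dcaf8 with Otub1 was 0.60, 0.34, 0.57 and 0.73, and that of Lpin2 0.53, -0.32, 0.67 and 0.63. The lowest r were those of Tceal3 (-0.75), Tceal6 (-0.73) and Rtn4 (-0.72), and Rtn4, which encodes the neurite growth inhibitor Nogo, had median log2 ratios of 0.21, 0.01, -0.79 and -0.58. Of the promoters of the 5 genes with high r, 0 of 5 held the ETS motif, 3 of 5 held GGGCGG (Dcaf8, Lrtm2 and Cirbp) and 2 of 5 held CCAAT (Cirbp and Nutf2).

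The rest of the ubiquitin system was read from 30 named genes in 6 lists, with Ube2v1 and Ube2v2 in both the list of E2 genes and that of OTUB1 partners. Each of them was called by the study in some regions of these samples, so the counts below are no independent evidence of a direction. In edgeR's test of FT against Sham in each region, with an adjusted p of at most 0.1 and an absolute log2 fold change of at least 0.32, 37 of their 750 region by gene combinations were called higher (4.93%) and 12 lower (1.60%). Over all transcripts 1.01% were called higher and 0.913% lower, and over named transcripts 3.67% and 2.68%. The median log2 fold change of the 30 genes was 0.36, against 0.01 over all transcripts and 0.18 over named ones. The calls fell in 5 regions, and Arc and MPOA, with 2 pairs each, held 28 of the 37 higher and 9 of the 12 lower calls. SNT held 2 higher and 1 lower, from a fit that kept its void Sham library of replicate 3. In Arc 13.7% of all transcripts were called higher and 10.8% lower, and in MPOA 4.85% and 4.74%. DESeq2 called 122 combinations higher (16.3%) and 20 lower (2.67%) on the same counts, where it called 1.19% of all transcripts higher and 0.803% lower, and 10.5% and 5.38% of named ones. Without replicate 4 or replicate 5, when Arc and MPOA could not be fitted, edgeR called 1 and 3 higher and 0 lower, and at an unadjusted p under 0.05 it gave 114 and 137 higher and 41 and 59 lower. Over all transcripts edgeR then called 0.0400% and 0.0612% higher and 0.0325% and 0.0843% lower. Without the replicate block it called 0 list combinations in either direction (70 higher and 12 lower at an unadjusted p under 0.05). Over all transcripts it then called 1 of 334878 combinations. Shares of all transcripts at the unadjusted threshold were not computed, so the unadjusted counts here and below have no background beside them.

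Among 7 other deubiquitinases, 5 were called higher in at least 1 region (Usp20, Mpnd, Usp19, Usp42 and Zranb1) and 2 were called lower (Otud6b and Usp31), with 12 of 175 combinations higher and 4 lower. Zranb1, a deubiquitinase of the same OTU family as Otub1, rose in Arc (log2 fold change 0.99, SE 0.17, adjusted p = 0.0256), MPOA (0.85, SE 0.27, adjusted p = 0.0451) and Raphe (0.68, SE 0.16, adjusted p = 0.0665). Otud6b, also of that family, fell in Arc (-1.02, SE 0.20, adjusted p = 0.0327) and had values below 0 in all 25 regions with a median of -0.68. Its median log2 ratios by replicate number were -0.56, -0.45, -0.96 and -0.72. The members of the OTU family with a name thus did not share 1 direction.

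Of 5 genes for ubiquitin and E1 enzymes, UBB and Uba6 were called higher and Rps27a, a gene for a fusion of ubiquitin and a ribosomal protein, lower, with 6 of 125 combinations higher and 1 lower. UBB, a polyubiquitin gene, had a median log2 fold change of 0.90 over regions and was called higher in Arc and MPOA. Of 7 E2 genes, 4 were called higher and 2 lower, with 4 of 175 combinations higher and 5 lower. Ube2v1 and Ube2v2 encode inactive partners of the E2 enzyme that OTUB1 binds. Ube2v1 was called in 0 regions by edgeR, in 3 at an unadjusted p under 0.05 and in 2 by DESeq2, with a median of 0.29, and Ube2v2 rose in Raphe (1.20, SE 0.25, adjusted p = 0.0569) with a median of 0.12.

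Of 4 named partners and substrates of OTUB1, Birc2, Uimc1 and Ube2v2 were called higher, with 5 of 100 combinations, and with all replicate numbers and the block 0 were called lower by edgeR, at an unadjusted p under 0.05 or by DESeq2. At an unadjusted p under 0.05 edgeR gave 11 higher and 7 lower without replicate 5, and 5 and 1 without the block. Birc2, a ubiquitin ligase that restrains cell death, rose in Arc (0.82, SE 0.16, adjusted p = 0.0327) and MPOA (1.33, SE 0.28, adjusted p = 0.000738). Uimc1, which encodes the ubiquitin-binding protein RAP80 of the DNA damage response, rose in Arc (1.20, SE 0.16, adjusted p = 0.0164) and MPOA (1.42, SE 0.29, adjusted p = 0.000566), and its fitted value was above 0 in all 25 regions. In replicates 1, 3, 4 and 5 the median log2 ratios were -0.29, -0.06, 1.18 and 1.29 for Uimc1. Those of Birc2 were -0.05, -0.02, 0.80 and 1.00, so both genes were higher in FT by their medians in replicates 4 and 5 only. Of 3 p53 target genes, Phlda3 and Bax were called higher, with 4 of 75 combinations, and again 0 were lower by any of the 3 readings. Bax, a promoter of cell death, rose in Arc (0.49, SE 0.14, adjusted p = 0.0707). Cdkn1a, a cell cycle inhibitor, was above 0 in all 25 regions with a median of 0.54 and was called in 0 of them by edgeR, in 9 at an unadjusted p under 0.05 and in 3 by DESeq2. Of 6 proteasome genes, Psma7, Psmb10 and Psmd8 were called higher and Psmd10 lower, with 7 of 150 combinations higher and 2 lower.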

How the data were processed

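Bulk RNA-seq of 196 pooled samples was analysed, 98 FT and 98 Sham, from paired 76 bp reads of libraries made with a stranded total RNA kit. The authors deposited raw counts of reads on 29188 Ensembl transcripts, made with STAR on rn5 and HTSeq per the submitters' processing notes, with FastQC as a quality check and no normalization. Versions and the strand setting of the counting are not given in the sources used here. Each file ends with 5 summary rows, which were kept out of library sizes. Reads ambiguous between transcripts came to a median of 5.52% and reads listed as not unique to 0. No 2 libraries held identical counts. Gene names came from the transcripts that the study lists as shared between regions, 1989 of which 1845 are named, so named transcripts are not independent of its calls.

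Regional levels were tested with edgeR 4.0.16 in R 4.3.3 (quasi-likelihood test, TMM, filterByExpr at its defaults of 10 reads in enough libraries and 15 in total) over the 98 samples of a treatment, with region and the replicate number as terms, and Benjamini-Hochberg adjusted p over all transcripts at 0.05. The FT contrasts of CMA and PVN were added after the Sham values were seen. FT against Sham was fitted within each region with the replicate number as a block, and a call needed an adjusted p of at most 0.1 and an absolute log2 fold change of at least 0.32. The study's methods state that samples of a number were processed in parallel and use the number as a batch, and in 91 of 94 pairs the FT and Sham deviations from their group means correlated across transcripts above 0.1 (median r 0.59, lowest -0.09). P-values measure the spread between pools, and no animal was sampled alone. Standard errors are the absolute log2 fold change divided by the square root of F. Pair ratios used log2 CPM with a prior count of 2. The test functions were checked on simulated counts.

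The gene, lists and tests were chosen with earlier results of these data known. Genes named were Otub1, the 5 highest and 3 lowest named transcripts by r with it over the Sham region means and over the pairs, among those that pass the filter in every region, and list members by counts with values for 8 of them. DRD2, Hcrt, Neurod1 and other markers came from the marker lists, and Macrod1 and Cox8a from the map. UBB, Rps27a, Usp20 and the other list members named beside counts are named as called. A gene of the ubiquitin lists and a neuronal marker are not reported here and were left out of the counts and sums. Alternatives were DESeq2 1.42.0, no replicate block, median-ratio size factors, library totals alone, no low-count filter, each replicate number left out, the SNT library of replicate 3 left out, all 8 CGC samples and, added after the data were seen, the CGC library of replicate 1 left out of the regional tests. Promoter sequences are RefSeq's on GRCr8, matched by symbol. Figures were drawn with matplotlib 3.10.9 in Python 3.11.15.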

Additional observations from a re-analysis of the deposited data

Results flagged for a closer look

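In 4 of the 47 groups of 4 usable libraries, 1 library lay far from the others by Dixon's criterion at its 95% critical value, the gap to the nearest library over the range of the group. All 4 were the highest Otub1 level of a Sham group and came from replicate 1. In Sham CGC it stood at 1383 CPM against 435 CPM for the next library and 271 CPM for the lowest, a gap of 0.853 of the range. In Sham HB it stood at 866 CPM, with the next at 289 CPM and the lowest at 180 CPM (0.842). In Sham LH it stood at 1083 CPM, with the next at 355 CPM and the lowest at 244 CPM (0.868). In Sham VMH it stood at 848 CPM, with the next at 367 CPM and the lowest at 271 CPM (0.834). Chance alone flags about 1 in 20 such groups if they are independent. The Sham groups share the animals and the batch of replicate 1, so that rate cannot be set against the 4 flagged here. Replicate 1 was the highest library in 18 of the 23 Sham groups of 4.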

How the results depend on the processing

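The fitted log2 fold change of Otub1, FT against Sham, was above 0 in all 25 regions with DESeq2, without the replicate block, with median-ratio size factors, with library totals alone, with no low-count filter, with all 8 CGC samples and without replicate 1 or 3. Its median over regions stayed between 1.07 and 1.18 under the first 6 of these. Leaving out a replicate number gave medians from 0.86 to 1.37, and without replicate 4 or 5, when Arc and MPOA could not be fitted, 22 of 23 regions were above 0, InsularCortex being the exception. Without the replicate block the Sham test over regions gave an adjusted p of 1, CMA lay at 0.90 and PVN at -0.85 against the other regions, FT CMA lay at 0.69, each with an adjusted p above 0.05, and edgeR called 0 Sham regions (1 at an unadjusted p under 0.05). With median-ratio size factors the Sham test over regions gave 0.0653, PVN -0.64 (adjusted p = 0.0635) and 1 region called. Leaving out a replicate number moved the adjusted p of the Sham test from 0.0453 to 0.134, CMA from 0.73 to 0.87 (0.0518 as its highest adjusted p, without replicate 5), PVN from -0.85 to -0.64 (0.0545 to 0.111), FT CMA from 0.67 to 0.75 (0.0388 to 0.125) and the number of Sham regions called from 0, without replicate 5 (4 at an unadjusted p under 0.05), to 1. Over all other alternatives run on it, the FT test over regions kept an adjusted p above the threshold, from 0.0880 to 1. Leaving out the SNT library of replicate 3 or the CGC library of replicate 1 changed no regional call. The calls of the ubiquitin lists were 122 higher and 20 lower with DESeq2, 114 and 31 with no low-count filter, 0 and 0 without the replicate block, and 1 to 49 higher and 0 to 16 lower with a replicate number left out. Over named transcripts 12.6% were called higher and 7.55% lower with no low-count filter. With a replicate number left out, 0.160% to 5.02% of named ones were called higher and 0.0814% to 3.55% lower. The cause of these changes was not tested, other than that fewer samples and regions enter when a number is left out. The block changed no direction of the FT to Sham fold change of Otub1. Counts on Otub1 were high in 195 libraries, so depth limits its values in the SNT library of replicate 3 and, at 33 reads, in the Sham ILC library of replicate 3.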
